A study of Mus musculus with 16 samples.

Results

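The 10 miRNAs described here are processed from 6 hairpins that lie antisense to Rtl1, a retrotransposon-derived gene of the Dlk1-Dio3 imprinted domain. They were chosen by name, as the listed mature miRNAs mmu-miR-337-5p, mmu-miR-337-3p, mmu-miR-431, mmu-miR-433, mmu-miR-127*, mmu-miR-127, mmu-miR-434-5p, mmu-miR-434-3p, mmu-miR-136 and mmu-miR-136* (written below without the species prefix), and all 10 were among the 611 mouse miRNAs on the array. Primary mouse embryonic fibroblasts (MEFs) of mixed FVB/n and C57Bl/6 background were compared in 8 groups of 2 arrays each. Ercc1-/- MEFs lack ERCC1, the partner of the XPF nuclease in DNA repair, and were grown to passage 7 (P7) in 20% O2 or in 3% O2, and to passage 3 (P3) in 20% O2 or in 3% O2. Wild-type (WT) MEFs carry intact Ercc1 and were grown to the same passages in the same oxygen levels. Late passage and 20% O2 are the conditions in which MEFs undergo stress-related senescence, so the comparisons ask how miRNAs differ with passage, genotype and oxygen. The methods of the study name a pair of independent cell lines behind each group, while the labels do not tie an array to a line.

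In the Dlk1-Dio3 domain the protein-coding genes Dlk1, Rtl1 and Dio3 are expressed from the paternal chromosome. The noncoding RNAs and miRNAs are expressed from the maternal chromosome. The miRNAs antisense to Rtl1 are cut from a maternal transcript that runs opposite to Rtl1, so each is fully complementary to the paternal Rtl1 mRNA, and miR-127 and miR-136 are known in mouse to direct its cleavage. The 2 arms of a hairpin start from the same precursor, and the arm kept by Argonaute is usually the more abundant one. Other known targets are Pax7 for miR-431 in mouse muscle stem cells, FGF20 for miR-433 in human cells and BCL6 for miR-127 in human cancer cells.

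All 10 miRNAs matched a RefSeq mature sequence on the plus strand of chromosome 12 (build GRCm38.p6), once the older array names were read as the arms in current use. This reading of 6 names rests on the naming alone and could not be checked against probe sequences, which were not used here. These are miR-431-5p for miR-431, miR-433-3p for miR-433, miR-127-5p for miR-127*, miR-127-3p for miR-127, miR-136-5p for miR-136 and miR-136-3p for miR-136*. The 6 hairpins, Mir337, Mir431, Mir433, Mir127, Mir434 and Mir136, follow one another within 9600 bp and all lie inside the span that RefSeq gives Rtl1 (chromosome 12, 109564900 to 109604418). Mir337 lies at 109585789 to 109585885, Mir431 at 109590447 to 109590537, Mir433 at 109591715 to 109591838, Mir127 at 109592846 to 109592915, Mir434 at 109594506 to 109594599 and Mir136 at 109595327 to 109595388. The sequences below are those of the miRNAs that the passage and arm comparisons turn on, 5′ to 3′, with the seed (bases 2 to 8) in capitals.
miR-337-5p: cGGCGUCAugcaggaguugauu
miR-337-3p: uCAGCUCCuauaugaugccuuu
miR-433: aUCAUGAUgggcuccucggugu
miR-127: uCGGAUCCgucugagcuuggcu
miR-434-5p: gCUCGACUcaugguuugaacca
miR-434-3p: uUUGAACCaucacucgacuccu
miR-136: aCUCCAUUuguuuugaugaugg
miR-136*: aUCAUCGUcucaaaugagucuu
The 10 seeds were all different, and 0 other mouse miRNAs in the RefSeq table shared any of them. The longest run of bases shared by 2 of the 10 mature sequences was 9, in miR-434-5p with miR-434-3p (UUUGAACCA) and in miR-337-5p with miR-431 (CGUCAUGCA). The G and C content of the 10 was between 36.4% and 59.1%, lowest in both arms of Mir136 and highest in miR-127.

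A level below is the scaled log2 signal of an array: the mean background-subtracted intensity of the probes of a miRNA, after the arrays were brought to one mean log2 signal over 57 miRNAs that no array had below background, with values under 1.50 set to that floor. Slide 1 held the replicate numbered 1 of the 8 groups and slide 2 the one numbered 2, so the comparisons that matter are also given within a slide. On each slide the P7 arrays occupied one row and the P3 arrays the other, so array row and passage cannot be told apart. Before scaling, the mean log2 signal over the 57 miRNAs was 5.80 to 9.29 on P7 arrays and 6.98 to 9.77 on P3 arrays (difference -0.92, exact permutation test, two-sided p = 0.111, 8 arrays against 8). Slide 2 minus slide 1 was -1.62, and within a slide P7 minus P3 was -0.70 on slide 1 (exact permutation test, p = 0.0286, the smallest that 4 arrays against 4 allow) and -1.14 on slide 2 (p = 0.114). Replicate 2 of P7 Ercc1-/- MEFs in 20% O2 was the dimmest array, with 117 miRNAs above background against up to 257 on the others, and its Pearson r with replicate 1 across miRNAs was 0.488, the lowest of the 8 groups. The 17 mesenchymal miRNAs listed were all tested. Of the markers of other cell types, 4 of 7 blood, 3 of 7 neural, 1 of 6 muscle, 0 of 7 epithelial, 2 of 5 liver and endothelial and 4 of 9 stem cell miRNAs were above background on some array, among them miR-223 on 9 arrays, miR-290-5p on 9, miR-155 on 6, miR-142-3p on 5 and miR-129-5p on 5. The red cell miRNAs miR-451 and miR-144, the muscle miRNAs miR-1 and miR-133a and the neural miRNAs miR-9 and miR-124 were above background on 0. MiR-210, which is induced by hypoxia, changed by -3.00 on the log2 scale in 20% against 3% O2 (SE 0.35), without overlap between the oxygen levels. MiR-34a, a p53 target, changed by -1.60 at P7 against P3 (SE 0.56). By genotype and oxygen its change was -1.24 to 0.006 on slide 1 and -4.87 to -1.48 on slide 2. It was not above background on the dimmest array, replicate 2 of P7 Ercc1-/- MEFs in 20% O2. No miRNA on the array reads out the Ercc1 genotype.

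Of the 10 miRNAs, 9 were tested, having passed background on 2 of 2 arrays in some group, as did 235 mouse miRNAs in all. MiR-127*, the passenger arm of Mir127, was above background on 0 of 16 arrays with any of its 4 probes, so no level or fold is given for it. MiR-127, miR-136, miR-337-5p and miR-434-3p were above background on all 16 arrays. MiR-431 was above background on 15, miR-433 on 15, miR-434-5p on 12, miR-136* on 11 and miR-337-3p on 11. The missing detections were mostly on P7 arrays and on slide 2. MiR-337-3p was above background on 3 of 8 P7 arrays and 8 of 8 P3 arrays, miR-136* on 4 and 7, and miR-434-5p on 5 and 7. On slide 1, 7 of the 9 were above background on all P7 arrays and 9 on all P3 arrays, against 5 and 6 on slide 2.

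**Figure D1:**
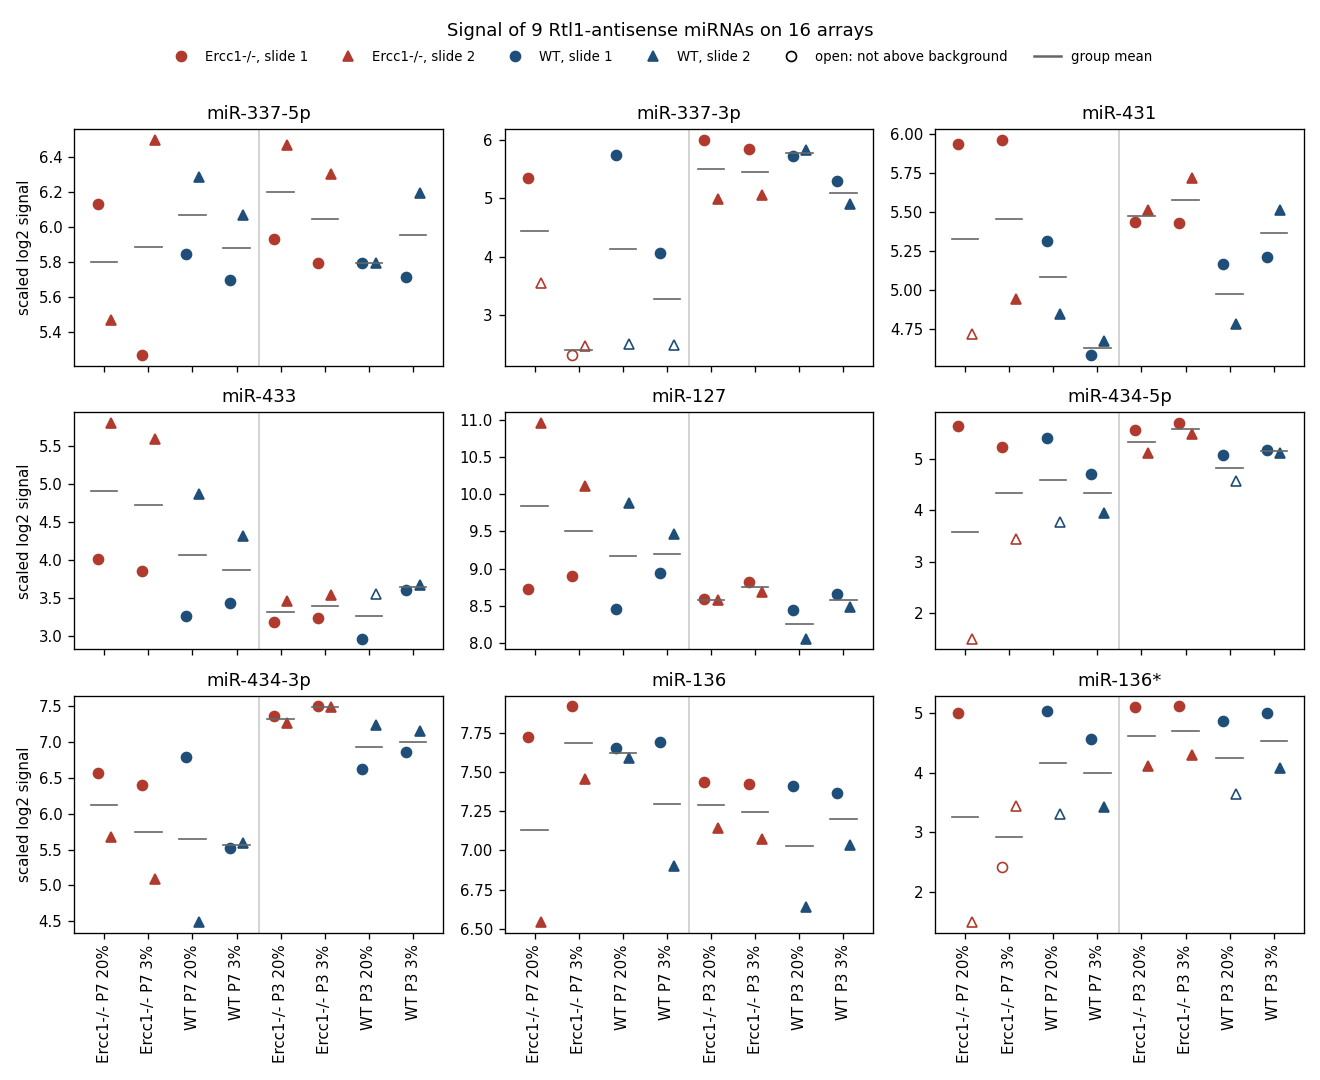
Scaled log2 signal (vertical axis, its range set for each miRNA) of 9 Rtl1-antisense miRNAs on each of 16 arrays, by group, with P7 groups to the left of the line and P3 groups to the right. Circles are slide 1, triangles slide 2, open symbols are not above background and bars are means of 2 arrays; the slide 2 triangles of miR-127 and miR-433 lie high at P7, and those of miR-337-3p, miR-434-3p and miR-434-5p lie low.

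The group with the highest mean differed between the miRNAs. MiR-127 and miR-433 were highest in P7 Ercc1-/- MEFs in 20% O2 (means of 9.84 and 4.91) and lowest in P3 WT MEFs in 20% O2 (8.26 and 3.26), and for both miRNAs all 4 P7 groups had a higher mean than all 4 P3 groups. MiR-434-3p, miR-434-5p and miR-136* were highest in P3 Ercc1-/- MEFs in 3% O2 (7.49, 5.60 and 4.71), and for these and for miR-337-3p all 4 P7 groups had a lower mean than all 4 P3 groups. How many of all tested miRNAs had their group means split by passage in this way was not counted. In the averaged passage comparison, 54.9% of all tested miRNAs were called, which is a different measure. Such an order is therefore not read here as a trait of these members. The means of miR-337-5p, miR-136 and miR-431 spanned 0.41, 0.66 and 0.95 over the 8 groups, and groups of both passages alternated in their order. Neighbouring groups mostly did not differ beyond their spread: the SD of the 2 arrays of a group had a median of 0.24 to 0.76 over the 8 groups, by miRNA, and reached 2.94 for miR-434-5p in P7 Ercc1-/- MEFs in 20% O2.

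With passage, averaged over genotype and oxygen, miR-337-3p and miR-434-3p fell and no member rose past the threshold. MiR-337-3p passed the filter on dim miRNAs only through P3 groups, and with no filter it was not called (limma, adjusted p = 0.0521), while miR-434-3p was above background on every array. Of the 9 tested, 2 were called at an adjusted p under 0.05 (limma with Benjamini-Hochberg adjustment over all 235), against a background of 54.9% of all tested miRNAs called, 32.3% lower and 22.6% higher. Of the 9, 6 had a lower and 3 a higher mean at P7. Their median change was -0.22, beside -0.39 over all tested miRNAs, a median that was -0.11 to -1.14 under other scalings. MiR-127, miR-136, miR-337-5p and miR-431 changed sign with passage under at least 1 of these scalings, and the other 5 kept theirs.

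MiR-337-3p had levels of 5.35 and 3.55 in P7 Ercc1-/- MEFs in 20% O2, 2.32 and 2.48 in P7 Ercc1-/- MEFs in 3% O2, 5.75 and 2.50 in P7 WT MEFs in 20% O2 and 4.06 and 2.48 in P7 WT MEFs in 3% O2. At P3 it had levels of 6.01 and 4.99 in Ercc1-/- MEFs in 20% O2, 5.85 and 5.05 in Ercc1-/- MEFs in 3% O2, 5.72 and 5.83 in WT MEFs in 20% O2 and 5.29 and 4.90 in WT MEFs in 3% O2. Replicate 1 in 20% O2 was as bright at P7 as at P3 in WT MEFs and reached the P3 range in Ercc1-/- MEFs, while the other 6 P7 arrays lay below every P3 array. The mean was 3.56 ± 1.38 at P7 and 5.45 ± 0.44 at P3 (SD, n = 8 each), so that P7 minus P3 was -1.89 with an SE of 0.49 (limma, adjusted p = 0.0109). Slide 1 gave -1.35 and slide 2 gave -2.44, and a fit with the slide as a block had an adjusted p of 0.00328. On slide 2 no P7 array was above background, so there miR-337-3p was at least 4.22-fold lower at P7 than at P3. With a normexp background in place of the subtracted one, which adds an offset of 50 to each spot, the difference was 0.00467 and the call was lost. The unscaled intensities of miR-337-3p on slide 2 were below that offset, 1.98 to 4.31 at P7 and 21.7 to 36.5 at P3. On slide 1 they lay on both sides of it at P7, 3.63 to 102, and above it at P3, 75.3 to 171. An added offset narrows log2 differences between dim signals by construction, and its part in the lost call was not tested. The study selected miR-337-3p from these same arrays, so its direction is not independent evidence.

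MiR-434-3p had levels of 6.57 and 5.68 in P7 Ercc1-/- MEFs in 20% O2, 6.40 and 5.08 in P7 Ercc1-/- MEFs in 3% O2, 6.80 and 4.49 in P7 WT MEFs in 20% O2 and 5.52 and 5.59 in P7 WT MEFs in 3% O2. The P3 levels were 7.37 and 7.27 in Ercc1-/- MEFs in 20% O2, 7.50 and 7.49 in Ercc1-/- MEFs in 3% O2, 6.62 and 7.25 in WT MEFs in 20% O2 and 6.86 and 7.15 in WT MEFs in 3% O2. Only replicate 1 of P7 WT MEFs in 20% O2 lay within the P3 range. The mean was 5.77 ± 0.78 at P7 and 7.19 ± 0.31 at P3 (SD, n = 8 each), so that P7 minus P3 was -1.42 with an SE of 0.37 (limma, adjusted p = 0.0109, and 0.00543 with the slide as a block). Slide 1 gave -0.77 and slide 2 gave -2.08, and with the normexp background the difference was -0.54 and was not called. Both probes of miR-434-3p gave the decrease (-1.40 and -1.49), as did the 3 probes of miR-337-3p (-1.48 to -1.83).

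MiR-127 and miR-433 had higher means at P7 without passing the threshold. MiR-127 had a lowest, median and highest level of 8.47, 9.20 and 10.95 at P7 and 8.06, 8.59 and 8.83 at P3, so that P7 minus P3 was 0.89 with an SE of 0.38 (limma, adjusted p = 0.0618, n = 8 each). MiR-433 had 3.26, 4.16 and 5.80 at P7 and 2.97, 3.50 and 3.67 at P3, so that P7 minus P3 was 0.99 with an SE of 0.39 (limma, adjusted p = 0.0514). With the slide as a block both were called (adjusted p = 0.0344 for miR-127 and 0.0108 for miR-433), so that 4 of the 9 were called in that fit, against 68.1% of all tested miRNAs. Both were also called when replicate 1 of P7 Ercc1-/- MEFs in 20% O2, of P7 Ercc1-/- MEFs in 3% O2 or of P7 WT MEFs in 20% O2 was left out, and leaving out any single array gave 0.61 to 1.16 for miR-127 and 0.76 to 1.21 for miR-433. The changes were 0.13 for miR-127 and 0.39 for miR-433 on slide 1, and 1.65 and 1.58 on slide 2. Both probes of miR-127 gave the increase (0.89 each), while for miR-433 only 1 of the 2 probes was above background on any array. With no scaling, the change of miR-127 was -0.03 and that of miR-433 was 0.07, so their increases were relative to a P7 signal that was lower over the scaling miRNAs.

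Of the remaining 5, miR-434-5p and miR-136* had lower means at P7, and miR-136, miR-431 and miR-337-5p had means that differed less. MiR-434-5p had a lowest, median and highest level of 1.50, 4.33 and 5.65 at P7 and 4.57, 5.16 and 5.71 at P3 (difference -1.02 with an SE of 0.56, limma adjusted p = 0.131). MiR-136* had 1.50, 3.43 and 5.04 at P7 and 3.65, 4.58 and 5.11 at P3 (difference -0.94 with an SE of 0.53, adjusted p = 0.142). In both miRNAs, replicate 2 of P7 Ercc1-/- MEFs in 20% O2 was at the floor, and the passages overlapped. Without that array the differences were -0.50 for each (adjusted p of 0.247 for miR-434-5p and 0.302 for miR-136*), and without replicate 1 of the same group they were -1.54 and -1.38, and both were called (limma, adjusted p of 0.00305 and 0.00990). The changes of miR-136, miR-337-5p and miR-431 were 0.24 (SE 0.29), -0.09 (SE 0.28) and -0.22 (SE 0.29), with adjusted p of 0.459 to 0.770.

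**Figure D2:**
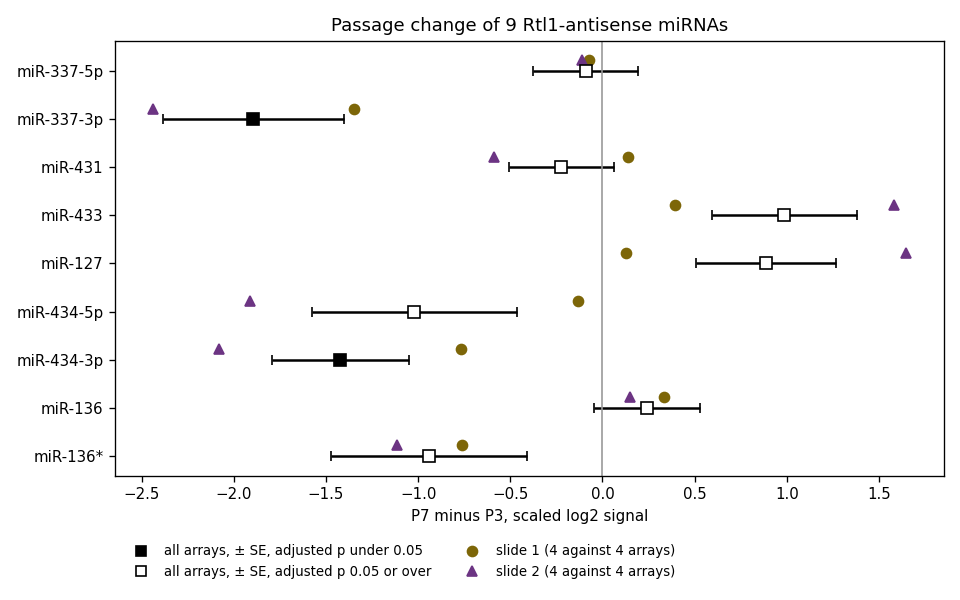
Passage change (P7 minus P3, scaled log2 signal, horizontal axis) of 9 Rtl1-antisense miRNAs in the order of their hairpins along the chromosome. Squares are the change over all 16 arrays ± SE, filled where the adjusted p was under 0.05 (miR-337-3p and miR-434-3p); circles are slide 1 and triangles slide 2, where 6 of the 9 lie farther than 1 unit from 0.

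The passage changes were larger in size on slide 2 than on slide 1 for 8 of the 9, miR-136 being the exception. On slide 2, all 4 P7 arrays lay below all 4 P3 arrays for miR-136*, miR-337-3p, miR-434-3p and miR-434-5p (4 of 9, background 43.4%) and above them for miR-127 and miR-433 (2 of 9, background 27.2%). On slide 1 the P7 and P3 arrays did not overlap for miR-136 alone, which was higher at P7 (1 of 9, background 6.81%), and 0 of 9 lay wholly lower (background 8.51%). Fitted on each slide alone, with genotype and oxygen as terms, 0 of 9 were called on slide 1 (limma, adjusted p of 0.121 and above, background 2.55%) and 6 of 9 on slide 2 (background 76.2%). The passage change on slide 2 minus that on slide 1 was 1.52 for miR-127 (SE 0.44, limma adjusted p = 0.0173), 1.19 for miR-433 (SE 0.40, adjusted p = 0.0272) and -1.78 for miR-434-5p (SE 0.63, adjusted p = 0.0356). These 3 of 9 were called, against a background of 50.6% of all tested miRNAs. For miR-337-3p the difference was -1.09 (SE 0.64, adjusted p = 0.165) and for miR-434-3p -1.31 (SE 0.52, adjusted p = 0.0512). Slide, scan and replicate number cannot be told apart here, and the part of the lower signal of slide 2 in these differences was not tested.

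**Figure D3:**
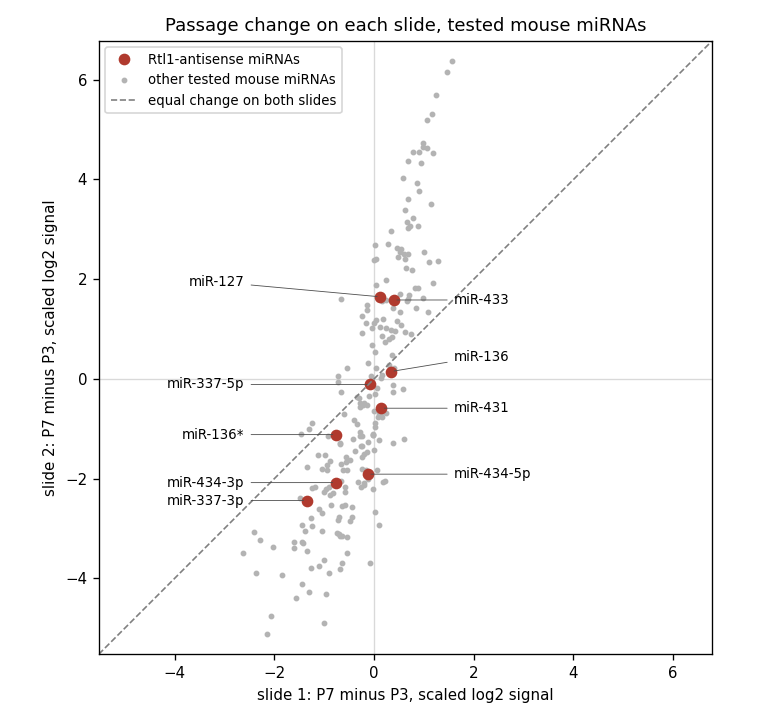
Passage change (P7 minus P3, scaled log2 signal) on slide 2 against that on slide 1 for the 9 Rtl1-antisense miRNAs (large points) and the other tested mouse miRNAs (small points), 235 in all. The dashed line marks equal changes; miR-127 and miR-433 lie near 0 on slide 1 and near 1.6 on slide 2.

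In single conditions, 0 of 9 were called between P7 and P3 with limma, in each of Ercc1-/- MEFs in 20% O2 (background 1.28%), Ercc1-/- MEFs in 3% O2 (background 0% called), WT MEFs in 20% O2 (1.28%) and WT MEFs in 3% O2 (0%). An unadjusted p under 0.05 by limma was reached by 0, 2, 0 and 0 of the 9 in that order, against 86, 74, 16 and 13 of all 235. With the methods' t-test at its 2-fold limit, run on the levels used here, 0 of 9 passed in each (4, 21, 2 and 13 of all 235). After scaling to the mean over all mouse miRNAs, 0 of 9 passed again (2, 8, 1 and 5 of all 235). The strongest was miR-337-3p in Ercc1-/- MEFs in 3% O2, the condition with both P7 arrays not above background. It was at least 7.00-fold lower there (2.32 and 2.48 at P7, against 5.85 and 5.05 at P3; adjusted p = 0.0820 by limma, and 0.0232 with the slide as a block, a fit that called 18.3% of all tested miRNAs, n = 2 each), with changes of -3.53 on slide 1 and -2.57 on slide 2. The measured signals of miR-136* were 3.43-fold lower in the same condition (limma, adjusted p = 0.232), with both P7 arrays not above background. MiR-434-3p had its largest change there too, -1.75 (SE 0.74, adjusted p = 0.129), and the P7 and P3 arrays did not overlap. MiR-127 was higher at P7 without overlap in all 4 conditions, by 1.26, 0.75, 0.91 and 0.63 in the order above (SE 0.76 each). Within the slides its rise was 0.01 to 0.28 on slide 1 and 0.97 to 2.37 on slide 2. How many of all tested miRNAs separated in all 4 conditions was not counted. The P7 arrays lay wholly above the P3 arrays for 2 of 9 in Ercc1-/- MEFs in 20% O2 (background 27.2%), 3 in Ercc1-/- MEFs in 3% O2 (32.3%), 3 in WT MEFs in 20% O2 (14.5%) and 1 in WT MEFs in 3% O2 (26.0%). They lay wholly below for 1 (33.6%), 4 (44.3%), 0 (28.1%) and 4 (40.9%) in the same order. Array quality weights gave 2 calls, miR-337-3p and miR-434-3p, in 3% O2 in each genotype, against a background under the same weights of 38.3% in Ercc1-/- and 19.6% in WT MEFs. Without replicate 1, P7 Ercc1-/- MEFs in 20% O2 had 4 calls of 9, miR-127, miR-433, miR-136* and miR-434-5p, against a background of 76.6% in that fit, and the lone array left was at the floor for miR-136* and miR-434-5p.

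The 2 arms of a hairpin changed by different amounts with passage in Mir337 and Mir136 with the subtracted background. Neither was called with the normexp background, and the part of its offset of 50 in this was not tested. The difference between the arms of one hairpin was taken on each array, which removes the scaling between arrays where neither arm is at the floor. Its passage change was tested by permuting the arrays, a comparison added after the values were seen. For Mir337, miR-337-3p minus miR-337-5p was -2.34 ± 1.46 at P7 and -0.54 ± 0.68 at P3 (SD, n = 8 each), a change of -1.80 (exact permutation test, two-sided p = 0.00932, 0.0140 adjusted over the 3 hairpins with both arms tested). It was lower at P7 in all 8 pairs of arrays of the same slide, genotype and oxygen, with means of -1.27 on slide 1 and -2.33 on slide 2, and slide 1 alone gave an adjusted p of 0.0571 (exact permutation test, 4 arrays against 4). For Mir136, miR-136* minus miR-136 was -3.84 ± 1.06 at P7 and -2.66 ± 0.31 at P3, a change of -1.18 (exact permutation test, p = 0.00653, adjusted 0.0140), lower in 8 of 8 pairs, with -1.10 and -1.26 on the slides. For Mir434, whose arms share 9 bases, miR-434-3p minus miR-434-5p was 1.56 ± 1.12 at P7 and 1.96 ± 0.35 at P3, a change of -0.40 (exact permutation test, p = 0.387, adjusted 0.387), lower in 7 of 8 pairs. With the normexp background the changes were -0.22 in Mir337, 0.059 in Mir136 and -0.76 in Mir434, with adjusted p of 0.241, 0.811 and 0.000932 (exact permutation tests), so the calls in Mir337 and Mir136 were lost and Mir434 passed. In Mir337 both arms were above background on 3 of 8 P7 arrays, in Mir136 on 4 and in Mir434 on 5, so the P7 differences rest in part on values below background. MiR-337-3p passed the filter on dim miRNAs only through P3 groups. The inclusion of Mir337 among the 3 hairpins thus rests on the passage where this arm was brighter. Leaving out the dim replicate 2 of P7 Ercc1-/- MEFs in 20% O2, in which miR-434-5p was at the floor, the change in Mir434 became -0.78 (exact permutation test, adjusted p = 0.00373).

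**Figure D4:**
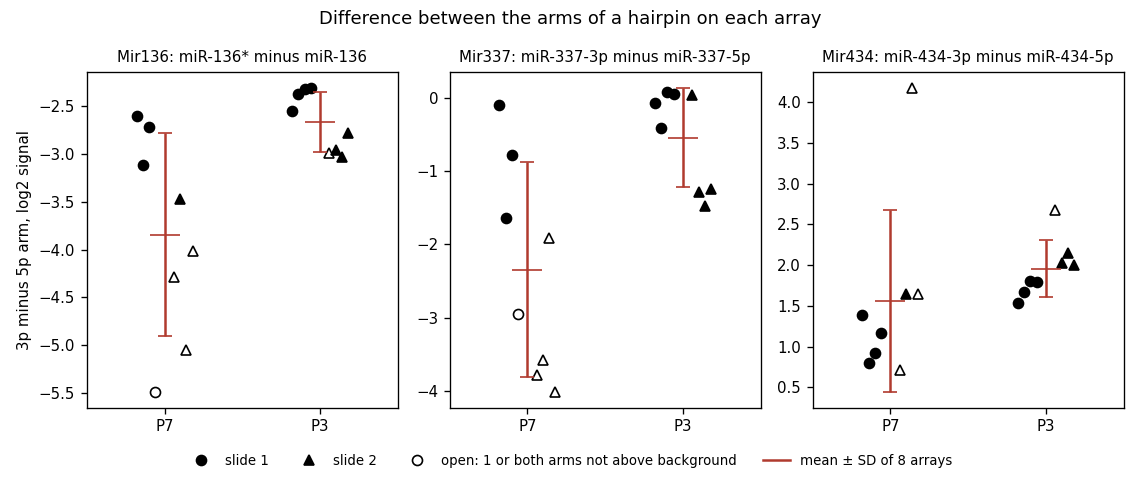
Difference between the 3p and the 5p arm of Mir136, Mir337 and Mir434 on each array (log2 signal, vertical axis), P7 left and P3 right. Circles are slide 1, triangles slide 2, open symbols have 1 or both arms not above background and red bars are means ± SD of 8 arrays; the mean differs by -1.18, -1.80 and -0.40 at P7 against P3.

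Between genotypes, 0 of 9 were called in any comparison. Averaged over passage and oxygen, the changes of Ercc1-/- against WT MEFs were between -0.37 for miR-136* and 0.45 for miR-431 (median 0.06, beside 0.02 over all tested miRNAs), with adjusted p of 0.933 and above by limma and a background of 1.70% called. At an unadjusted p under 0.05 there were 0 of 9, against 17 of all 235. In single conditions, 0 of 9 were also called (background 0.426% at P7 in 20% O2, 0% at P7 in 3% O2, 0.851% at P3 in 20% O2 and 0% at P3 in 3% O2). The methods' t-test called 0 of 9 in each, against 0, 4, 5 and 7 of all 235 in that order. At P3 in 20% O2, 8 of 9 had a higher mean in Ercc1-/- MEFs, where 48.9% of all tested miRNAs did, and 5 of 9 were higher without overlap (background 17.0%). These 5 were miR-127, miR-337-5p, miR-431, miR-434-3p and miR-434-5p, by 0.33 to 0.52 (SE 0.57 to 1.11). At P3 in 3% O2, 8 of 9 again had a higher mean, where 52.8% of all tested miRNAs did, and 3 of 9 were higher without overlap (background 22.6%), miR-127, miR-434-3p and miR-434-5p, and 1 lower (background 17.4%), miR-433. MiR-434-3p had levels of 7.50 and 7.49 in Ercc1-/- MEFs and 6.86 and 7.15 in WT MEFs there, and of 7.37 and 7.27 in Ercc1-/- MEFs and 6.62 and 7.25 in WT MEFs in 20% O2, differences of 0.49 and 0.39 (SE 0.74 each, adjusted p of 1.00 each). Each difference of these miRNAs at P3 was smaller than its SE.

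At P7 the genotype differences were spread more widely and went both ways. In 20% O2 they were between -1.02 for miR-434-5p and 0.85 for miR-433, and Ercc1-/- and WT arrays overlapped for all 9 (background 6.38% wholly higher and 2.98% wholly lower). Without replicate 1 of the Ercc1-/- MEFs, 1 of 9 was called (background 31.5%), miR-434-5p, for which the lone array left was at the floor, so no size is given. In 3% O2 they were between -1.07 for miR-136* and 0.85 for miR-433. MiR-431 had levels of 5.96 and 4.94 in Ercc1-/- MEFs and 4.58 and 4.67 in WT MEFs in 3% O2, without overlap, a difference of 0.83 (SE 0.57), the only one wholly higher (background 14.9%), and miR-337-3p was the only one wholly lower (background 16.6%). MiR-136* was above background on 0 of 2 Ercc1-/- and 2 of 2 WT arrays in 3% O2. Its measured signals there were 2.11-fold lower than in WT MEFs (limma, adjusted p = 0.988). The gap was on slide 1 (2.42 against 4.57), while both genotypes were at 3.44 and 3.43 on slide 2. MiR-337-3p was above background on 0 of 2 Ercc1-/- and 1 of 2 WT arrays there, so no fold is given. The change with passage in Ercc1-/- minus that in WT MEFs was between -1.26 for miR-136* (SE 1.06) and 0.94 for miR-433 (SE 0.79), with an adjusted p of 0.769 and above.

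Between oxygen levels, 0 of 9 were called in any comparison, with an adjusted p of 1.00 for every one by limma. The methods' t-test called 0 of 9, against 1 of all 235 in each of the 4 conditions. Averaged over genotype and passage, the changes of 20% against 3% O2 were between -0.27 for miR-434-5p and 0.91 for miR-337-3p (median -0.02, beside 0.05 over all tested, background 0.851% called). An unadjusted p under 0.05 by limma was reached by 0 of 9, against 6 of all 235. MiR-337-3p differed most in P7 Ercc1-/- MEFs, with levels of 5.35 and 3.55 in 20% O2 and 2.32 and 2.48 in 3% O2, above background on 1 of 2 and 0 of 2 arrays, so no fold is given (unadjusted p = 0.0605 by limma, n = 2 each). In WT MEFs it was higher by 0.85 at P7 and 0.67 at P3 (SE 0.99 each), and by 0.05 in P3 Ercc1-/- MEFs. For the other 8, the oxygen differences in the 4 conditions were between -0.77 (miR-434-5p in P7 Ercc1-/- MEFs) and 0.46 (miR-431 in P7 WT MEFs). Without overlap, 1 of 9 was higher and 0 lower in P7 Ercc1-/- MEFs (background 2.98% and 5.11%), 1 and 0 in P7 WT MEFs (4.68% and 11.1%), 0 and 2 in P3 Ercc1-/- MEFs (15.3% and 9.79%) and 1 and 4 in P3 WT MEFs (20.0% and 12.8%). The passage change in 20% minus that in 3% O2 was higher than 0 for 8 of 9 (median 0.40, beside 0.01 over all tested), with 1.09 for miR-337-3p (SE 0.99) and an adjusted p of 0.996 for each.

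**Figure D5:**
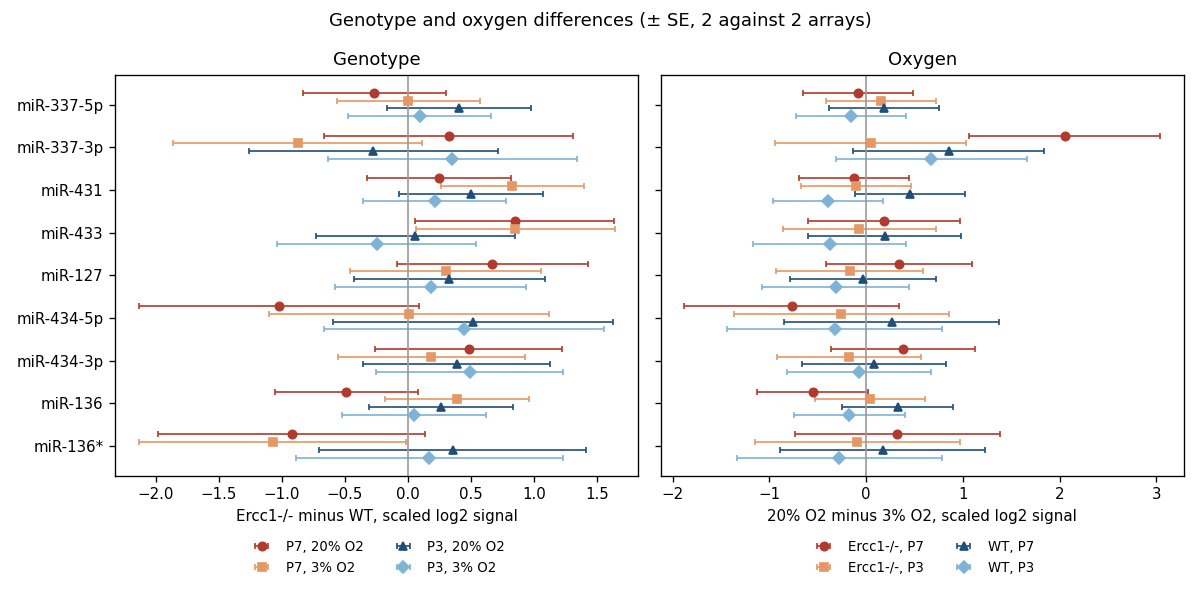
Differences of Ercc1-/- minus WT MEFs (left) and of 20% minus 3% O2 (right) in scaled log2 signal ± SE for 9 Rtl1-antisense miRNAs, in each of 4 conditions with 2 against 2 arrays. The bars of most points cross 0, and the point of miR-337-3p between oxygen levels in P7 Ercc1-/- MEFs rests on 1 of 4 arrays above background.

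Between the most and the least senescent group, P7 Ercc1-/- MEFs in 20% O2 and P3 WT MEFs in 3% O2, 0 of 9 were called (background 2.55%), with adjusted p of 0.227 and above by limma. An unadjusted p under 0.05 was reached by 0 of 9, against 70 of all 235. MiR-127 was 8.73 and 10.95 in the P7 Ercc1-/- and 8.66 and 8.49 in the P3 WT arrays, and miR-433 was 4.02 and 5.80 against 3.61 and 3.67. MiR-434-3p was 6.57 and 5.68 against 6.86 and 7.15. In these 3 the groups did not overlap (2 of 9 higher, background 28.5%, and 1 lower, background 29.8%), with changes of 1.27, 1.27 and -0.88 (SE 0.76, 0.79 and 0.74). Without replicate 1 of the P7 Ercc1-/- MEFs, which leaves the dimmest array alone, 4 of 9 were called in this comparison, miR-127, miR-433, miR-136* and miR-434-5p, against a background of 72.8% in that fit.

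Among themselves, the 9 fell into opposed patterns over the 16 arrays, described here by Pearson r, with no test, since the points share arrays, slides and scaling. Of the 36 pairs, 18 had a positive and 18 a negative r, with a median of 0.02. The highest was 0.92 for miR-127 with miR-433, and the lowest was -0.88 for miR-127 with miR-434-5p, although Mir127 and Mir434 are neighbouring hairpins. MiR-337-3p and miR-434-3p had an r of 0.81. The arms of Mir337 had an r of -0.03, those of Mir136 one of 0.39 and those of Mir434 one of 0.68. The 5 miRNAs most like the mean level of the 9 were miR-543, miR-541, miR-382*, miR-495 and miR-376c (r of 0.94, 0.93, 0.91, 0.90 and 0.90 over 16 arrays), which all belong to the Mirg miRNAs of the same domain and had passage changes of -2.19 to -1.11. Taken singly, miR-127, miR-337-3p, miR-434-3p and miR-434-5p were most like miR-370, miR-376b*, miR-329 and miR-411 of the domain. MiR-136, miR-136*, miR-337-5p, miR-431 and miR-433 were most like miR-24, miR-22*, miR-361, miR-129-3p and miR-681, which are not among the listed domain miRNAs.

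The other miRNAs of the domain also changed in both directions with passage. Of 61 listed, 32 were tested, and 5 were called higher and 12 lower at P7 (median -0.54), beside 22.6% higher and 32.3% lower of all tested miRNAs. From the Meg3 side, 0 of 8 were tested. Of the 2 tested between the Rtl1 and Mirg hairpins, both had higher means and miR-370 was called, at 2.67 with an SE of 0.83 (limma, adjusted p = 0.0191), and slide 1 gave 0.78 and slide 2 gave 4.56. Of 30 tested Mirg miRNAs, 4 were called higher and 12 lower (median -0.74). MiR-494 had the largest change, 3.97 with an SE of 0.90 (adjusted p = 0.00701; 1.56 and 6.39 within the slides). MiR-299* had the largest decrease, -2.95 with an SE of 0.82 (adjusted p = 0.0124). Beside these changes, the mesenchymal list summed to between 14.16 and 15.03 at P7 and between 14.67 and 14.99 at P3 (log2 of the summed scaled signals), with 2 called higher and 7 lower of 17, and of the other marker lists only the brain-enriched miR-129-5p (1.55, SE 0.35) and the stem cell miR-290-5p (1.43, SE 0.40) were called in the averaged passage comparison. The part of cell composition in the passage changes was not tested, and fewer cells of a type and less RNA per cell cannot be told apart in bulk RNA.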

How the data were processed

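RNA of the 16 samples was hybridized to one-colour Agilent mouse miRNA arrays. The intensity values deposited by the authors come from Feature Extraction (version 10.7.1.1 per the file headers), which subtracts the background of each spot and does no scaling between arrays. The series table deposited by the authors holds 1 summed intensity per miRNA and array, and was used only as an alternative. Control and outlier spots were left out, and spots, then probes, were averaged. A probe counted as above background if a fraction of 0.5 or more of its spots carried the software's mark, and a miRNA if one of its probes did. Scaled signals had a floor of 2.82 (log2 1.50), and the lowest scaled signal above background was 1.02 to 18.0 by array. Group means were fitted together in limma 3.58.1 under R 4.3.3 (8 residual and 3.58 prior degrees of freedom), over 235 miRNAs in 19 comparisons, and the other 376 mouse miRNAs were not tested. The fit was tested on simulated data. With 2 arrays per group their number limits the precision, and p-values measure the spread between these arrays. A fold is a lower bound if the dimmer group had 0 arrays above background: its arrays were then placed at the lowest signal above background, or at the measured signal if that was higher. For miR-136* the measured signals were the higher ones, so its folds are given as measured. The slide holds the replicate number and the scan as well. Differences between slides correlated within a passage (median r of 0.61 and 0.81) but not between passages (0.03). Alternatives covered scaling, background, floor, filter, blocks, weights and each array left out. Every member was named, beside the 5 tested miRNAs most like their mean, the miRNA most like each tested member and the 3 largest calls of the domain. The slide and arm tests, and the methods' t-test after scaling to the mean over all mouse miRNAs, were added after the data were seen. Members and lists were chosen with earlier results of these data known.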

Additional observations from a re-analysis of the deposited data

Results flagged for a closer look

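Of the 9 tested miRNAs, 3 had a passage change that differed between the slides by a test of the difference (slide by passage term, limma over all 235 tested miRNAs), beside 50.6% of all tested miRNAs. On slide 2 minus slide 1 it was 1.52 for miR-127, 1.19 for miR-433 and -1.78 for miR-434-5p. The unscaled intensities of miR-127 on slide 2 were 337 to 542 at P7 and 102 to 438 at P3. Those on slide 1 were 348 to 738 at P7 and 689 to 1128 at P3. The mean unscaled log2 difference was 0.51 on slide 2 and -0.57 on slide 1. On slide 2 the unscaled signal was lower at P7 in Ercc1-/- MEFs in 20% O2 (337 against 424), where the scaled change was 2.37. It was higher at P7 in Ercc1-/- MEFs in 3% O2 (447 against 408) and in WT MEFs in 20% O2 (387 against 102) and 3% O2 (542 against 438). The unscaled intensities of miR-434-5p on slide 2 were -0.96 to 11.9 at P7 and 9.10 to 44.5 at P3.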

How the results depend on the processing

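The count of members called in the averaged passage comparison was 2, and it moved with the scale and the design. It was 4 with quantile scaling, with the 75th percentile over all miRNAs or over those above background on all arrays, with the replicate block and with a random block for genotype and replicate number together. It was 1 with no filter on dim miRNAs, 0 with no scaling, 0 with normexp, 0 on slide 1 alone and 6 on slide 2 alone. The share of all tested miRNAs called moved too, with 52.8% to 68.1% in the settings that gave 4, 9.0% with no filter, 18.7% with no scaling, 14.9% with normexp, 2.55% on slide 1 and 76.2% on slide 2. Leaving out 1 array gave 2 to 6: 6 without replicate 1 of P7 Ercc1-/- MEFs in 20% O2 (82.1% of all), and 4 without replicate 1 of P7 Ercc1-/- MEFs in 3% O2 or of P7 WT MEFs in 20% O2. MiR-337-3p and miR-434-3p kept an adjusted p under 0.05 in all 16 of these (up to 0.0301 and 0.0306), while their adjusted p was 0.0534 each with no scaling and 0.0521 for miR-337-3p with no filter. In single conditions, the count of 0 became 1 with the replicate block or the random block and 2 with array quality weights for Ercc1-/- MEFs in 3% O2, and 2 with those weights for WT MEFs in 3% O2. Leaving out 1 array gave 0 to 4 for Ercc1-/- MEFs in 20% O2 and for the most against the least senescent group, and 0 to 1 for the genotypes at P7 in 20% O2, each higher count arising without replicate 1 of P7 Ercc1-/- MEFs in 20% O2. These fits assume that an array left alone in its group varies like the other groups. The genotype, oxygen and difference counts were otherwise 0 under every alternative.

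Directions reversed for small changes. With no scaling miR-127 was at -0.032 and miR-136 at -0.68, and miR-136 was at -0.17 when scaled to the mean of all miRNAs, the scale of the methods of the study. MiR-337-5p was at 0.16 with quantile scaling, at 0.25 with the 75th percentile over miRNAs above background on all arrays and from -0.25 to 0.063 with 1 array left out, and miR-431 was at 0.11 with that percentile and 0.14 on slide 1 alone. Normexp was run with an offset of 50 on the median spot signal, since the files hold no mean signal, and was chosen after seeing the data. With it, miR-136* was at 0.32, miR-337-3p at 0.00467, miR-337-5p at 0.23, miR-431 at 0.29, miR-434-5p at 0.22 and the difference between the arms of Mir136 at 0.059. The difference between the arms of Mir434 was 0.013 with the floor multiplied by 0.1, and -0.66 with it multiplied by 4 (exact permutation test, adjusted p = 0.0132). An added offset narrows log2 differences between dim signals by construction. Its part in the normexp values, and the cause of the other reversals, were not tested. The P7 minus P3 difference in unscaled signal of -0.92 was -0.70 on slide 1 alone (exact permutation test, p = 0.0286, the smallest it can give) and -1.18 to -0.62 with 1 array left out. Dim arrays limit miR-337-3p, miR-136* and miR-434-5p most.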
